A study of Homo sapiens with 24 samples.

Results

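The genes described here form the cholesterol synthesis pathway and the machinery around SREBP2, the transcription factor that controls it. The module was given as 28 human gene symbols, and its members were the rows of the deposited count table that carry the NCBI Gene identifier of 1 of those symbols. The table held 27 of the 28 among its 11927 genes. CYP51A1, the lanosterol demethylase, had no row and was not analysed here. Of the 27 members, 25 passed the filter on low counts and were tested. LSS, the cyclase that makes lanosterol, and INSIG1, which holds SREBP2 in the endoplasmic reticulum, did not pass it. LSS had 79 reads over all 24 libraries. INSIG1 had 147, of which 104 came from a single library, sitfeb/sitfe3 with sgKeap1-2, replicate 2. The 25 members tested comprised 18 enzymes of the pathway, 3 genes that sense sterols or move SREBP2, and 4 genes of sterol transport and uptake.

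Cholesterol is built from acetyl-CoA by way of mevalonate, isoprenoid diphosphates, squalene and lanosterol, in steps that take place largely at the endoplasmic reticulum. When sterols in that membrane are scarce, SCAP escorts the SREBP2 precursor to the Golgi, proteases release its active fragment, and the fragment binds sterol response elements, usually next to sites for NF-Y or Sp1, in the promoters of most genes of the pathway. When sterols are plentiful, INSIG proteins retain the complex in the endoplasmic reticulum. The liver is a main site of this pathway in the body.

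The cells were HepG2, an established human liver cancer line, transduced with lentiCRISPRv2, a lentiviral vector that delivers Cas9 and 1 guide. The control guide, sgCtrl, cuts at AAVS1, a locus used as a safe harbour, whereas sgKeap1-1 and sgKeap1-2 are different guides against KEAP1, the adaptor protein through which the transcription factor NRF2 is marked for degradation. Each transduced culture was then transfected with siNC, a non-targeting siRNA, or with siRNAs against TFEB and TFE3 together (sitfeb/sitfe3), which encode transcription factors of lysosomal genes, and RNA was taken 72 h later. The 6 groups are labelled siNC; sgCtrl, siNC; sgKeap1-1, siNC; sgKeap1-2, sitfeb/sitfe3; sgCtrl, sitfeb/sitfe3; sgKeap1-1 and sitfeb/sitfe3; sgKeap1-2, with 4 libraries in each. All 6 thus carry Cas9 and a guide and received an siRNA. The transduced cells were populations selected with puromycin and are not described as clones, so edited and unedited cells could be present together. The library names carry 1 prefix for each replicate number, the same in all 6 groups. The prefixes read like dates, but the labels do not explain them or say that replicates came from separate cultures, so p-values measure only the spread between these libraries, which may be technical.

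Libraries were made with a 3′ tag kit and held 3527000 to 4600951 reads. Levels are given as CPM, the count of a gene per 1000000 reads in genes that passed the filter on low counts, with TMM factors. Changes are log2 fold changes, each ± its standard error (SE), and a gene passed, and is said to have risen or fallen, at an adjusted p of at most 0.05 by limma. KEAP1 itself measured 84.9 ± 6.69 CPM (SD, n = 4) with sgCtrl under siNC, 53.8 ± 6.17 with sgKeap1-1 and 77.4 ± 3.89 with sgKeap1-2. It fell with sgKeap1-1 under siNC (-0.66 ± 0.11, adjusted p = 0.000102) and under sitfeb/sitfe3 (-0.61 ± 0.11, adjusted p = 0.000259), and did not pass with sgKeap1-2 (-0.14 and -0.13). A 3′ tag does not read the edited site, so KEAP1 counts check neither guide. TFE3 and TFEB were lower in every sitfeb/sitfe3 library than in every siNC library. A pair of libraries, replicate 1 of sgKeap1-1 under siNC and replicate 1 of sgKeap1-2 under sitfeb/sitfe3, stood apart from the other 22 on the second principal component, which held 11.7% of the variance. Hepatocyte markers (ALB, AFP, FGA, FGB, AHSG, APOA2, HNF4A and TF) were all detected. Of 10 markers of leukocytes, endothelium and stroma, 2 were in the table, LYZ at 2295 ± 552 CPM with sgCtrl under siNC and PDGFRB at 9.41 ± 1.53. The 8 others (PTPRC, CD3E, PECAM1, CDH5, VWF, COL3A1, DCN and LUM) had no row.

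The first comparison asked how the pathway's transcripts differed when KEAP1 was targeted. Transcripts of the first enzyme of the pathway, of the last and of most between them fell with either guide. Under siNC, 14 of the 25 members tested fell with sgKeap1-1 and none rose, where 10.9% of all genes tested passed the threshold and 4.91% passed it as lower. Without replicate 3 of sgCtrl under siNC, 9 fell. With sgKeap1-2 under siNC, 14 fell and 1 rose (14.7% of all genes passed, 7.14% as lower, 7.58% as higher). Under sitfeb/sitfe3, 14 fell with sgKeap1-1 (10.5% and 4.81%) and 16 fell with sgKeap1-2 (20.2% and 9.59%), and none rose with either. The median log2 fold change over the 25 members was -0.60 and -0.59 with sgKeap1-1 and sgKeap1-2 under siNC, and -0.54 and -0.76 under sitfeb/sitfe3. Over all 11152 genes tested these medians were -0.02, -0.00, 0.00 and 0.01. Libraries did not overlap, and were lower than sgCtrl, for 10 members with sgKeap1-1 and 13 with sgKeap1-2 under siNC (6.47% and 9.28% of all genes tested), and for 11 and 15 under sitfeb/sitfe3 (8.11% and 9.24%). MYLIP was the 1 member that did not overlap and was higher, with sgKeap1-2 under siNC (11% of all genes tested). The contrasts of both guides under the same siRNA share their sgCtrl libraries and are not independent of each other. The contrasts of 1 guide under siNC and under sitfeb/sitfe3 share no library. They do share the guide, the replicate prefixes and 1 fit over all libraries, so they are not independent either. With sgKeap1-1, 11 of the 14 members that fell under siNC and 11 of the 14 that fell under sitfeb/sitfe3 were the same genes (78.6% of each). With sgKeap1-2, all 14 that fell under siNC were among the 16 that fell under sitfeb/sitfe3 (87.5% of the second list). Over all genes tested, the shared part was 61.7% and 63.1% of the lists with sgKeap1-1 and 73.9% and 55.0% with sgKeap1-2.

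Averaged over both guides and both siRNAs, 18 members fell, 1 rose and 6 did not pass, at a median of -0.61, where 30.9% of all genes tested passed the threshold and 15.6% passed it as lower and 15.2% as higher. Among the 18 enzymes tested, 15 fell. ACAT2, HMGCS1, MVK, MVD, FDPS, FDFT1, SQLE, MSMO1, EBP, DHCR7 and TMEM97 fell in each of the 4 contrasts, 11 members of 25, against 2.66% of all genes tested. For ACAT2, HMGCS1, SQLE and EBP, each of the 16 libraries with a KEAP1 guide lay below all 8 with sgCtrl, which held for 1.62% of all genes tested.

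**Figure D1:**
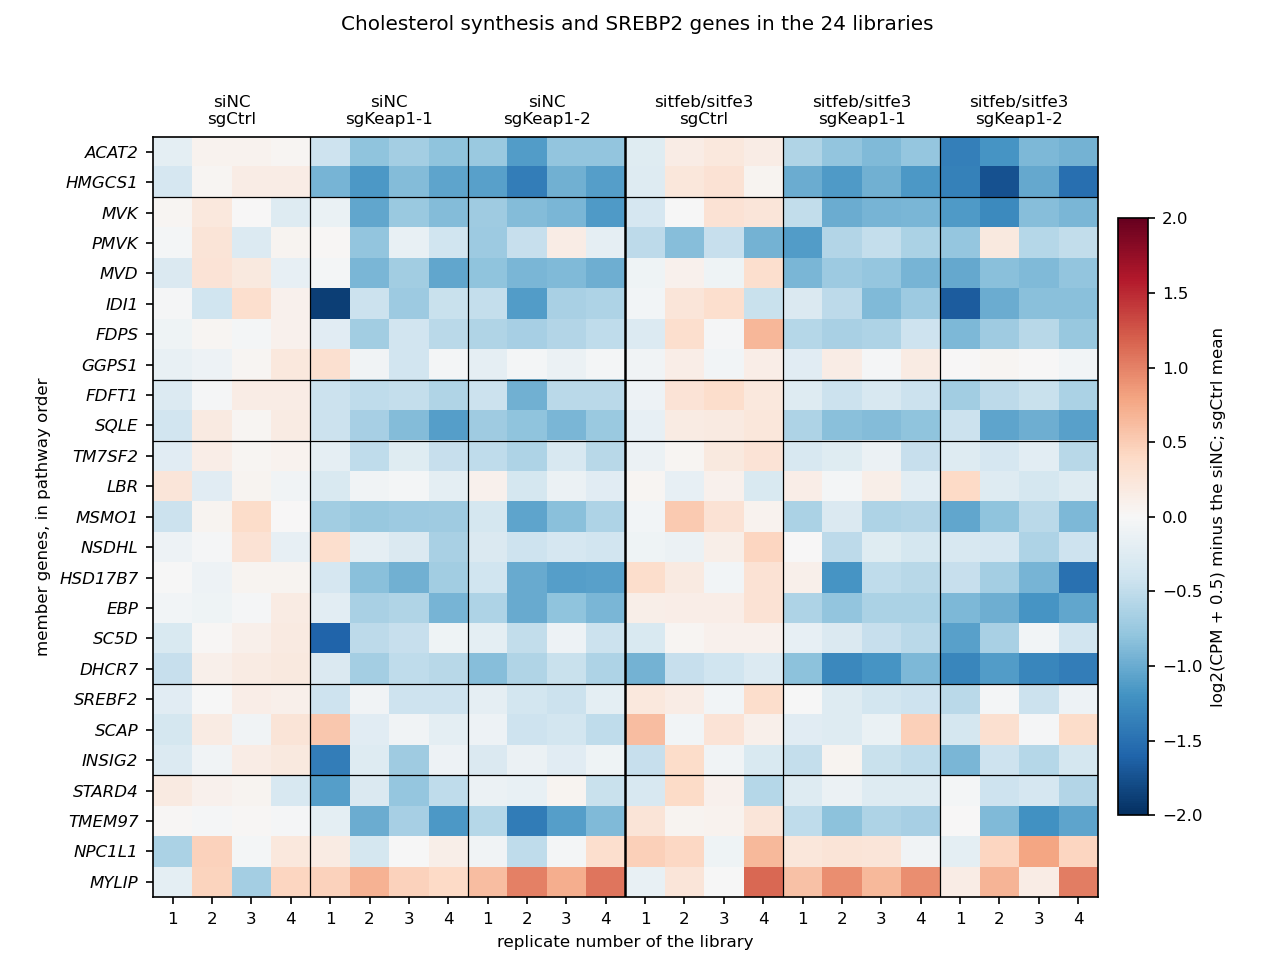
Level of each of the 25 members tested in each of the 24 libraries, as log2(CPM + 0.5) minus the mean of the 4 siNC; sgCtrl libraries; rows follow the pathway from acetyl-CoA to cholesterol, then SREBP2 processing, then transport, and columns are replicate numbers within each group. Blue cells, lower than that mean, fill most rows under both KEAP1 guides from ACAT2 to DHCR7, whereas GGPS1 and LBR stay pale and MYLIP turns red.

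Markers of the hepatocyte moved with the KEAP1 guides as well. Of the 8 markers, 7, 6, 7 and 7 fell in the 4 contrasts with the guides and none rose. Among all genes tested, 4.91%, 7.14%, 4.81% and 9.59% fell in these contrasts. The marker ALB, for example, measured 10885 ± 1641 CPM (SD, n = 4) with sgCtrl under siNC, 4449 ± 352 with sgKeap1-1 and 4661 ± 352 with sgKeap1-2. AFP had an averaged change of -1.89 ± 0.15 (adjusted p = 9.20e-11 by limma). APOA2, by contrast, measured 6472 ± 1005, 7143 ± 1369 and 6471 ± 627 CPM with sgCtrl, sgKeap1-1 and sgKeap1-2 under siNC. The summed level of the 8 markers ran from 25523 to 39586 CPM in the sgCtrl libraries under siNC, from 19419 to 21165 with sgKeap1-1 and from 18078 to 20567 with sgKeap1-2. Under sitfeb/sitfe3 the ranges were 23308 to 35449, 16781 to 19020 and 15485 to 17692 CPM. Both other markers in the table, LYZ (-0.46 ± 0.11, adjusted p = 0.00215) and PDGFRB (-0.96 ± 0.20, adjusted p = 0.000499), fell on average. They summed to 1541 to 2824 CPM with sgCtrl under siNC, 946 to 1918 with sgKeap1-1, 1369.5 to 1644 with sgKeap1-2 and, under sitfeb/sitfe3, 1304 to 2099.6, 1342 to 1605 and 995 to 1471 CPM. The part of these markers in the falls of the pathway was not tested, and in bulk RNA fewer cells of a kind and less RNA per cell cannot be told apart.

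The mean level of the module, taken as the mean log2 CPM of the 25 members in a library, was 6.41 ± 0.12 (SD, n = 4) with sgCtrl under siNC, 5.94 ± 0.07 with sgKeap1-1 and 5.92 ± 0.09 with sgKeap1-2. With sitfeb/sitfe3 it was 6.46 ± 0.10, 5.98 ± 0.05 and 5.83 ± 0.05. The lowest sgCtrl library, 6.23, lay above the highest library with a KEAP1 guide, 6.05. Summed over all 27 members, LSS and INSIG1 included, their transcripts took 3943 ± 373 CPM with sgCtrl under siNC. With sgKeap1-1 and sgKeap1-2 under siNC the sums were 2590 ± 235 and 2405 ± 226 CPM. With sitfeb/sitfe3 they were 4207 ± 388 for sgCtrl, 2601 ± 111 for sgKeap1-1 and 2281 ± 69.8 for sgKeap1-2. Pairs of libraries of the same replicate number use each sgCtrl library for both guides. The mean log2 level was lower with a KEAP1 guide in each of the 16 pairs, which follows from the lack of overlap given above. It was lower by less among the replicates numbered 1, where the differences were -0.19, -0.23, -0.26 and -0.55 for the 4 contrasts, than among the replicates numbered 2 to 4, where they ran from -0.71 to -0.52. In the plot of the module mean, replicate 1 of sgCtrl is the lowest of its group under either siRNA.

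**Figure D2:**
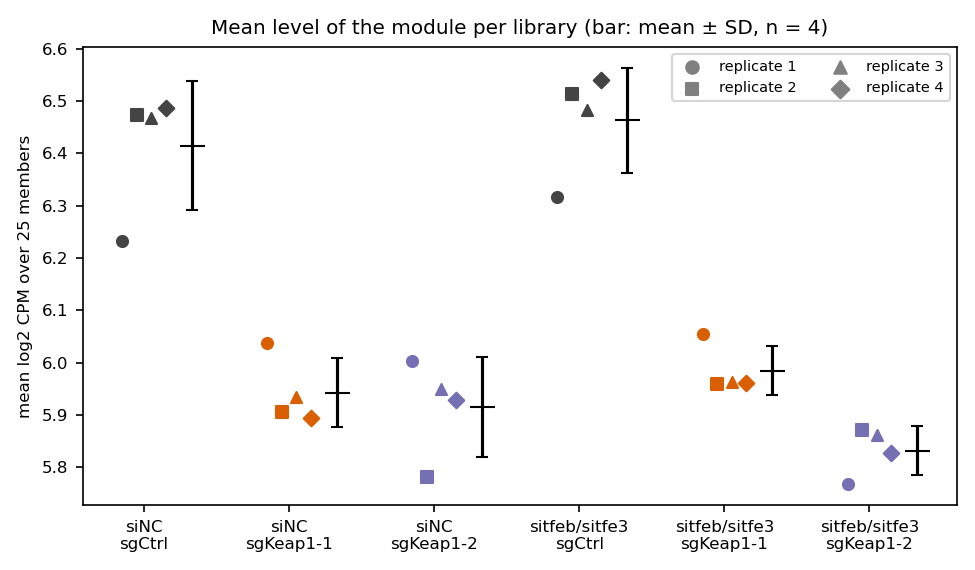
Mean log2 CPM over the 25 members tested in each library, by group; each symbol shape is a replicate number and bars show the mean ± SD of 4 libraries. The 8 sgCtrl libraries lie between 6.23 and 6.54 and the 16 libraries with a KEAP1 guide between 5.77 and 6.05, while sitfeb/sitfe3 and siNC groups of the same guide sit close together.

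The RefSeq promoter windows of the members (GRCh38.p14, from 250 bases before to 50 bases after the annotated start) were searched on both strands for letters that such promoters are known for. Windows were found for 24 of the 27 members, and not for ACAT2, FDFT1 and SQLE. CCAAT, the core of the NF-Y site, occurred in 18 of the 24 (75%) and in 36.9% of the 9685 windows of other genes in the table. GGGCGG, a Sp1 site, occurred in 20 (83.3% against 70.2%). TCACNCCAC, a strict form of the sterol response element, occurred in 1 window, that of SREBF2 (4.17% against 1.09%). TGACNNNGC, the core of the antioxidant response element bound by NRF2, occurred in 5 windows (20.8% against 15.2%), those of EBP, INSIG2, LBR, NPC1L1 and TMEM97, and CACGTG, an E-box, in 4 (16.7% against 10.2%). Each motif was counted by itself, also where matches of different motifs overlapped. Among the 16 tested members with CCAAT in the window, 13 fell on average over guides and siRNAs, with a median log2 fold change of -0.64. Among the 6 without it (PMVK, IDI1, GGPS1, LBR, SCAP and INSIG2), 2 fell and the median was -0.14. Of all genes tested, 15.6% fell in that comparison, and their share with and without CCAAT was not counted. ACAT2, FDFT1 and SQLE, which fell in each contrast with the guides, had no window and are in neither set. The difference between these sets of promoters was not tested, and a match describes letters, not a bound site.

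The 250 bases upstream of 4 starts are shown because they span these cases. SREBF2 (chr22:41832855-41833104 on the plus strand) holds the sterol response element match, whose first base lies at -133 from the start. HMGCS1 (chr5:43313413-43313662 on the minus strand) had the lowest fold changes of the module. MVK (chr12:109573544-109573793 on the plus strand) holds 5 CCAAT matches, as many as NSDHL and more than the other members. GGPS1 (chr1:235326966-235327215 on the plus strand) holds no match and did not pass the threshold in any contrast. Sequences run 5′ to 3′ on the strand of the gene, and capitals mark TCACNCCAC or CCAAT on either strand, where ATTGG is CCAAT read on the opposite strand.
SREBF2: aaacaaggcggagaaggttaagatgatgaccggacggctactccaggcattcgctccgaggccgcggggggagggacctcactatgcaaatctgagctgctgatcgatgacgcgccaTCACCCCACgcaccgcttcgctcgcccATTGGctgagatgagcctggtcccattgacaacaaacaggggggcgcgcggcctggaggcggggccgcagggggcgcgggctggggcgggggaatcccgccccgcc
HMGCS1: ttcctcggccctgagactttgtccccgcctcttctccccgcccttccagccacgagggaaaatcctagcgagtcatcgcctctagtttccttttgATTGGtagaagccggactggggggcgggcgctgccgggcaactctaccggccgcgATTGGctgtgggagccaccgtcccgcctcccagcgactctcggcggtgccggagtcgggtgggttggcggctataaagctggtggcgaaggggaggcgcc
MVK: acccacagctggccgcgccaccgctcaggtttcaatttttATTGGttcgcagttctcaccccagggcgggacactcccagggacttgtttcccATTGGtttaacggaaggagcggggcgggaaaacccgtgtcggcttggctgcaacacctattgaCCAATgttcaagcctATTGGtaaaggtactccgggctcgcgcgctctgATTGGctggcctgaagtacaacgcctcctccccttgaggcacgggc
GGPS1: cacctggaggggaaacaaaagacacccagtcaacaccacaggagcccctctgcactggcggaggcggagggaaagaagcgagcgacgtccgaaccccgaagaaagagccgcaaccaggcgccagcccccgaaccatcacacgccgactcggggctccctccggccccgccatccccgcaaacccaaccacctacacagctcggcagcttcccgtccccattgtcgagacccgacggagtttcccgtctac

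The pathway opens with ACAT2, the cytosolic thiolase that joins acetyl-CoA units, and HMGCS1, the cytosolic HMG-CoA synthase. Both fell in each contrast, and HMGCS1 had the largest falls of the module in all 4. HMGCS1 (GRCh37 chr5:43287572-43313614, minus strand) measured 435, 563, 612 and 609 CPM in the sgCtrl libraries under siNC, 288, 246, 300.4 and 264 with sgKeap1-1 and 258, 210.2, 282 and 257 with sgKeap1-2. HMGCS1 under sitfeb/sitfe3 measured 458, 640.1, 672 and 570.1 CPM with sgCtrl, 275, 249, 282 and 248 with sgKeap1-1 and 215, 163, 270.3 and 194 with sgKeap1-2. No library with a KEAP1 guide reached the lowest sgCtrl library, and replicate 1 was the lowest sgCtrl library under either siRNA. Its log2 fold changes were -1.0 and -1.13 with sgKeap1-1 and sgKeap1-2 under siNC and -1.14 and -1.48 under sitfeb/sitfe3 (SE 0.14, adjusted p 1.26e-08 to 9.75e-06 by limma), which put its level with sgKeap1-2 under sitfeb/sitfe3 64.2% below sgCtrl. ACAT2 (GRCh37 chr6:160183077-160200144, plus strand) measured 598, 714, 716 and 703 CPM in the sgCtrl libraries under siNC, 511, 388, 425 and 391 with sgKeap1-1 and 408, 314, 396 and 395 with sgKeap1-2. Under sitfeb/sitfe3, ACAT2 measured 574, 754, 785 and 753 CPM with sgCtrl, 450.2, 395, 370.3 and 396 with sgKeap1-1 and 265, 299.7, 364 and 352 with sgKeap1-2. The groups did not overlap there either, with the sgKeap1-1 library numbered 1 under siNC the closest to the controls. ACAT2 changed by -0.68 and -0.85 with sgKeap1-1 and sgKeap1-2 under siNC and -0.82 and -1.16 under sitfeb/sitfe3 (SE 0.12, adjusted p 6.23e-08 to 0.000274). The last 500 bases of HMGCS1 overlap a long noncoding RNA on the opposite strand, and those of ACAT2 overlap TCP1 on the opposite strand, and the counting is not stated to use strand. TCP1, a chaperonin subunit, did not pass the threshold averaged over guides and siRNAs (0.11 ± 0.06, adjusted p = 0.173).

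From mevalonate to farnesyl diphosphate, the phosphorylating and decarboxylating enzymes MVK and MVD, the isomerase IDI1 and the synthase FDPS were lower with the KEAP1 guides, and PMVK and GGPS1 were not shown to change. MVK (mevalonate kinase, GRCh37 chr12:110011060-110035930, plus strand) measured 71.6, 80.8, 70.6 and 58.5 CPM in the sgCtrl libraries under siNC, 64, 33.9, 41.5 and 38.1 with sgKeap1-1 and 42.4, 37.9, 36.8 and 31.8 with sgKeap1-2. In the sitfeb/sitfe3 libraries, MVK measured 55.5, 69.3, 85.9 and 82.5 CPM with sgCtrl, 49.7, 34.8, 36.7 and 36.7 with sgKeap1-1 and 31.6, 28.5, 38.4 and 37.1 with sgKeap1-2. Only the library numbered 1 of sgKeap1-1 under siNC entered the range of its controls. The log2 fold changes of MVK were -0.69 and -0.92 with sgKeap1-1 and sgKeap1-2 under siNC and -0.90 and -1.10 under sitfeb/sitfe3 (SE 0.17, adjusted p 3.91e-05 to 0.00664). MVD (mevalonate diphosphate decarboxylase, GRCh37 chr16:88718343-88729569, minus strand) measured 66.3, 98.5, 93 and 72.4 CPM in the sgCtrl libraries under siNC, 78.9, 43.1, 50.3 and 39.3 with sgKeap1-1 and 46.3, 42.8, 43.8 and 41 with sgKeap1-2. The sitfeb/sitfe3 libraries held MVD at 76.8, 86.7, 76.7 and 103 CPM with sgCtrl, 43.1, 48.9, 47.6 and 42.7 with sgKeap1-1 and 39.9, 45.5, 44.1 and 46.8 with sgKeap1-2. Again the replicate numbered 1 of sgKeap1-1 under siNC was the library that overlapped its controls. MVD changed by -0.67 and -0.90 with sgKeap1-1 and sgKeap1-2 under siNC and -0.90 and -0.95 under sitfeb/sitfe3 (adjusted p 9.37e-05 to 0.0052).

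FDPS (GRCh37 chr1:155278539-155290457, plus strand), which makes farnesyl diphosphate, measured 194, 214, 201 and 221 CPM in the sgCtrl libraries under siNC, 177, 128, 159 and 143 with sgKeap1-1 and 136, 130.0, 138 and 146 with sgKeap1-2. After TFEB/TFE3 knockdown, FDPS measured 172, 260.3, 204 and 329.8 CPM with sgCtrl, 139, 132, 135 and 155 with sgKeap1-1 and 111, 126, 141 and 123 with sgKeap1-2. It did not overlap between either guide and sgCtrl under either siRNA. FDPS changed by -0.46 and -0.59 with sgKeap1-1 and sgKeap1-2 under siNC and -0.74 and -0.91 under sitfeb/sitfe3 (SE 0.14, adjusted p 2.59e-05 to 0.0308). With sgKeap1-1 under siNC, FDPS no longer passed without replicate 2, 3 or 4 of sgCtrl under siNC or replicate 2, 3 or 4 of sgKeap1-1 under siNC (log2 -0.48 to -0.37, adjusted p 0.0557 to 0.129). IDI1 (isopentenyl diphosphate isomerase, GRCh37 chr10:1085092-1095059, minus strand) measured 106, 81.5, 136 and 114 CPM in the sgCtrl libraries under siNC, 28.7, 80.04, 64.6 and 78.6 with sgKeap1-1 and 77.1, 49.3, 68.5 and 70.2 with sgKeap1-2. IDI1 under sitfeb/sitfe3 measured 103, 128, 136 and 79 CPM with sgCtrl, 88.1, 74.3, 58.3 and 64.9 with sgKeap1-1 and 33.4, 53.9, 60.2 and 60.2 with sgKeap1-2. Its levels spread widely, and the lowest came from the pair of libraries that stood apart. Its groups were separate apart from sgKeap1-1 under sitfeb/sitfe3. IDI1 fell with sgKeap1-1 under siNC (-0.88 ± 0.25, adjusted p = 0.0193), with sgKeap1-2 under siNC (-0.71 ± 0.24, adjusted p = 0.047) and with sgKeap1-2 under sitfeb/sitfe3 (-1.09 ± 0.25, adjusted p = 0.00218), and did not pass with sgKeap1-1 under sitfeb/sitfe3 (-0.63 ± 0.24, adjusted p = 0.0982). That last contrast passed with quality weights on the libraries (adjusted p = 0.00185), without the 6 libraries numbered 1 (0.00445) and without both libraries that stood apart (0.00702). IDI1 no longer passed with sgKeap1-1 under siNC without replicate 3 or 4 of sgCtrl under siNC or replicate 1 of sgKeap1-1 under siNC (log2 -0.84 to -0.53, adjusted p 0.0541 to 0.0872), and no longer passed with sgKeap1-2 under siNC when any 1 of the 24 libraries was left out, other than replicate 2 of sgCtrl under siNC, replicate 1, 2 and 4 of sgKeap1-1 under siNC, replicate 1 of sgKeap1-2 under siNC, replicate 3 and 4 of sgCtrl under sitfeb/sitfe3 and replicate 1 and 2 of sgKeap1-2 under sitfeb/sitfe3 (log2 -0.75 to -0.58, adjusted p 0.0522 to 0.175). FDPS and IDI1 overlap antisense RNAs (RUSC1-AS1 and IDI2-AS1) at their 3′ ends, and reads from both strands cannot be told apart if strand was not used. PMVK, phosphomevalonate kinase, measured 16.3 ± 2.58, 13 ± 3.13 and 13.3 ± 3.57 CPM (SD, n = 4) with sgCtrl, sgKeap1-1 and sgKeap1-2 under siNC, and 9.88 ± 1.69, 9.86 ± 1.87 and 12.4 ± 4.1 under sitfeb/sitfe3. Its averaged change was -0.08 (95% interval -0.37 to 0.21). GGPS1, which makes geranylgeranyl diphosphate for protein prenylation, measured 29.6 ± 3.4, 29 ± 5.93 and 27.7 ± 1.37 CPM under siNC and 30.3 ± 2.29, 29.98 ± 3.76 and 29.5 ± 0.862 under sitfeb/sitfe3. Its averaged change was -0.05, and the interval of -0.22 to 0.12 does not reach the averaged change of any member that fell. Its 3′ end overlaps another protein-coding gene on the same strand.

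**Figure D3:**
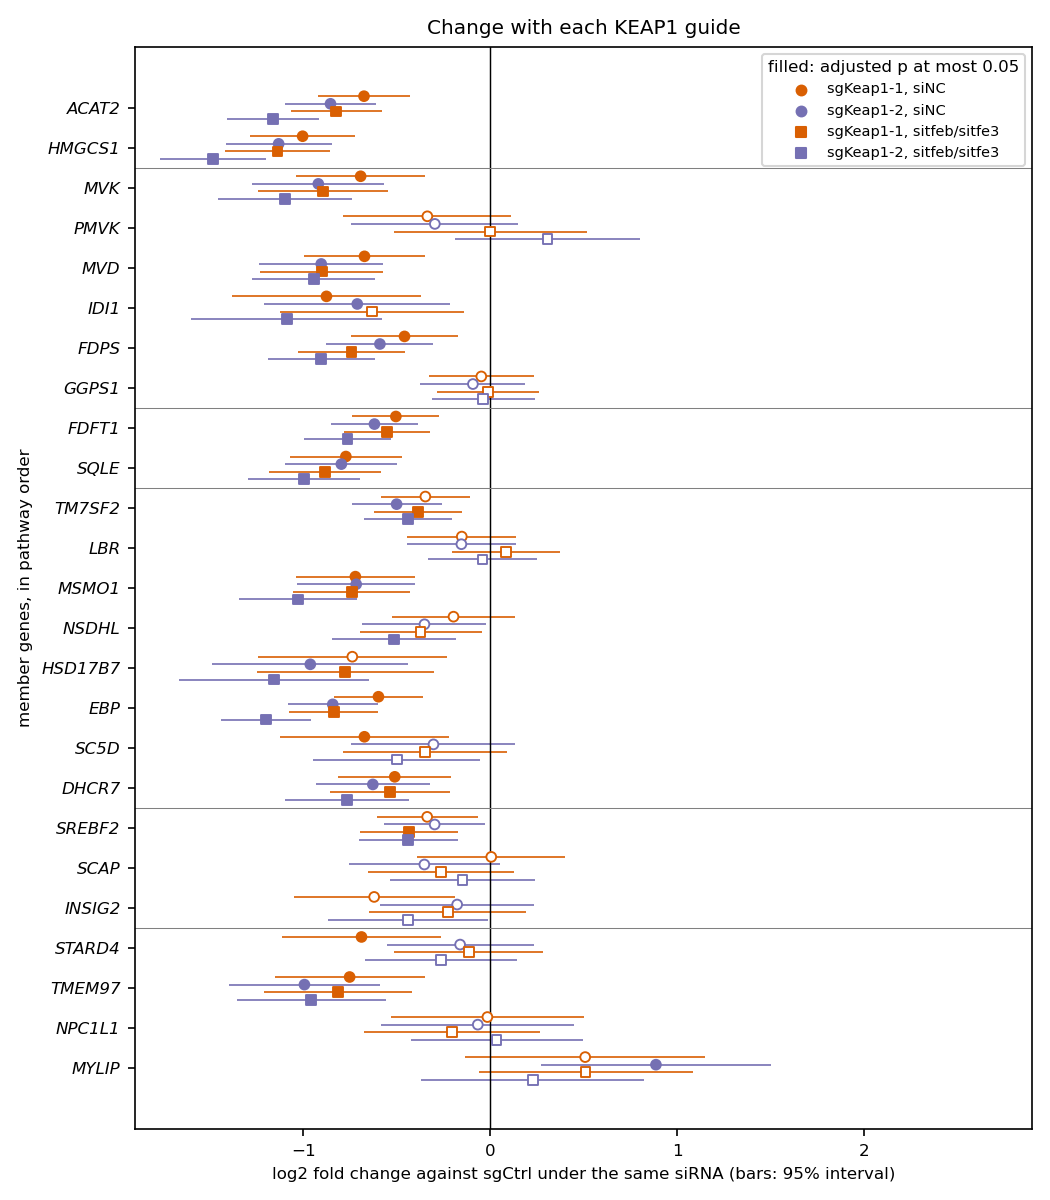
Log2 fold change of each member tested with each KEAP1 guide against sgCtrl under the same siRNA (circles, siNC; squares, sitfeb/sitfe3; orange, sgKeap1-1; purple, sgKeap1-2), with 95% intervals; filled symbols have an adjusted p of at most 0.05. HMGCS1 reaches -1.48 with sgKeap1-2 under sitfeb/sitfe3, the 4 symbols of GGPS1 lie at the zero line, and MYLIP is the only member with a filled symbol to the right of it.

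FDFT1 and SQLE commit farnesyl diphosphate to sterols: FDFT1 is squalene synthase, and SQLE, squalene epoxidase, is a rate-limiting step of the later pathway. Both fell in each contrast. FDFT1 measured 354, 421, 477 and 472 CPM in the sgCtrl libraries under siNC, 317, 301, 306 and 283 with sgKeap1-1 and 316, 221, 293 and 293 with sgKeap1-2. In the sitfeb/sitfe3 libraries, FDFT1 measured 401, 518, 546 and 498 CPM with sgCtrl, 357, 318, 341 and 317 with sgKeap1-1 and 264, 299, 313 and 275 with sgKeap1-2. Its groups did not overlap within an siRNA. FDFT1 changed by -0.50 and -0.62 with sgKeap1-1 and sgKeap1-2 under siNC and -0.55 and -0.76 under sitfeb/sitfe3 (SE 0.11, adjusted p 1.52e-05 to 0.00346). SQLE measured 217, 322, 293 and 318 CPM in the sgCtrl libraries under siNC, 210.4, 178, 155 and 132 with sgKeap1-1 and 174, 161, 151 and 169 with sgKeap1-2. The sitfeb/sitfe3 libraries held SQLE at 254, 317, 319.9 and 333 CPM with sgCtrl, 186, 158, 155 and 163 with sgKeap1-1 and 211, 136, 144 and 134 with sgKeap1-2. Every library with a guide against KEAP1 lay below all sgCtrl libraries, although replicate 1 of sgKeap1-1 under siNC and replicate 1 of sgKeap1-2 under sitfeb/sitfe3 came close to the lowest of them. SQLE changed by -0.77 and -0.80 with sgKeap1-1 and sgKeap1-2 under siNC and -0.89 and -1.0 under sitfeb/sitfe3 (SE 0.15, adjusted p 1.33e-05 to 0.000578). LSS, the next enzyme, had 0 to 22 reads in a library, too few to test.

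Of the 8 tested enzymes that turn lanosterol into cholesterol, 7 fell on average over guides and siRNAs. EBP, the sterol isomerase, and MSMO1, the oxidase that removes methyl groups, fell in each contrast. EBP (GRCh37 chrX:48380187-48387104, plus strand) measured 169, 167, 175 and 198 CPM in the sgCtrl libraries under siNC, 153, 112, 117 and 92.6 with sgKeap1-1 and 115, 87.2, 101 and 93.2 with sgKeap1-2. After TFEB/TFE3 knockdown, EBP measured 191, 194, 193 and 217 CPM with sgCtrl, 115, 102, 113 and 114 with sgKeap1-1 and 94.4, 89.3, 77.7 and 85.7 with sgKeap1-2. All 16 libraries with a KEAP1 guide were below all 8 controls. Its 3′ end overlaps another protein-coding gene on the same strand, so reads may have been shared or lost between them. EBP changed by -0.60 and -0.84 with sgKeap1-1 and sgKeap1-2 under siNC and -0.84 and -1.20 under sitfeb/sitfe3 (SE 0.12, adjusted p 2.83e-08 to 0.000775). MSMO1 (GRCh37 chr4:166248819-166264316, plus strand) measured 169, 236, 293 and 228 CPM in the sgCtrl libraries under siNC, 139.6, 135, 137 and 138 with sgKeap1-1 and 177, 108, 128 and 148 with sgKeap1-2. MSMO1 under sitfeb/sitfe3 measured 219, 328, 278 and 238 CPM with sgCtrl, 146, 185, 148 and 152 with sgKeap1-1 and 109.8, 129.7, 156 and 122 with sgKeap1-2. It overlapped between sgKeap1-2 and sgCtrl under siNC through the libraries numbered 1 and was separate elsewhere. MSMO1 changed by -0.72 and -0.72 with sgKeap1-1 and sgKeap1-2 under siNC and -0.74 and -1.03 under sitfeb/sitfe3 (SE 0.15, adjusted p 1.71e-05 to 0.00216).

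The partners of MSMO1 in removing those methyl groups are NSDHL and HSD17B7, and fewer of their contrasts passed. NSDHL (GRCh37 chrX:151999511-152038273, plus strand) measured 65.8, 68.8, 86.4 and 62.5 CPM in the sgCtrl libraries under siNC, 88.5, 62, 57.6 and 44.6 with sgKeap1-1 and 57.6, 52.8, 55.8 and 53.6 with sgKeap1-2. In the sitfeb/sitfe3 libraries, NSDHL measured 66.3, 64.7, 76.2 and 94.9 CPM with sgCtrl, 70.4, 48.7, 59.4 and 55.1 with sgKeap1-1 and 56, 55.6, 45.7 and 52.8 with sgKeap1-2. It was separate from sgCtrl with sgKeap1-2 under either siRNA and overlapped with sgKeap1-1. NSDHL fell only with sgKeap1-2 under sitfeb/sitfe3 among the separate contrasts (-0.52 ± 0.16, adjusted p = 0.023), where it no longer passed without replicate 3 or 4 of sgCtrl under sitfeb/sitfe3 or replicate 3 of sgKeap1-2 under sitfeb/sitfe3 (log2 -0.51 to -0.40, adjusted p 0.0534 to 0.1), and fell on average (-0.36 ± 0.10, adjusted p = 0.00552). With quality weights it also passed with sgKeap1-2 under siNC (adjusted p = 0.0259) and with sgKeap1-1 under sitfeb/sitfe3 (0.0479), the latter also without the libraries numbered 1 (0.0139). HSD17B7 (GRCh37 chr1:162760492-162782613, plus strand) was low, at 11.2, 10.5, 11.8 and 11.8 CPM in the sgCtrl libraries under siNC, 8.82, 6.11, 5.53 and 6.75 with sgKeap1-1 and 8.47, 5.38, 4.97 and 5.06 with sgKeap1-2. The sitfeb/sitfe3 libraries held HSD17B7 at 14.5, 12.8, 10.9 and 13.9 CPM with sgCtrl, 12.2, 4.7, 7.76 and 7.53 with sgKeap1-1 and 8.04, 6.89, 5.68 and 3.71 with sgKeap1-2. Its groups were separate apart from sgKeap1-1 under sitfeb/sitfe3, where replicate 1 reached the controls. It fell with sgKeap1-2 under siNC (-0.96 ± 0.25, adjusted p = 0.0103) and with both guides under sitfeb/sitfe3 (-0.78 ± 0.23, adjusted p = 0.0283 for sgKeap1-1 and -1.16 ± 0.25, adjusted p = 0.00122 for sgKeap1-2), and narrowly missed the threshold with sgKeap1-1 under siNC (-0.74 ± 0.25, adjusted p = 0.053). That contrast passed with the replicate number as a block (adjusted p = 0.0308), with DESeq2 (0.0472), with quality weights (0.0161), without the libraries numbered 1 (0.0230) and without the pair that stood apart (0.0296). With sgKeap1-1 under sitfeb/sitfe3, HSD17B7 no longer passed without replicate 1, 2 or 4 of sgCtrl under sitfeb/sitfe3 or replicate 2, 3 or 4 of sgKeap1-1 under sitfeb/sitfe3 (log2 -0.79 to -0.54, adjusted p 0.0559 to 0.172), nor with edgeR (adjusted p = 0.0706). A near-identical pseudogene, HSD17B7P2, was counted apart, at 0 to 14 reads in a library. HSD17B7P2 fell on average (-1.38 ± 0.41, adjusted p = 0.0103 by limma), a change whose size is uncertain at such low counts. How reads were shared between the copies is uncertain too.

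TM7SF2 and LBR catalyse the same sterol reduction, LBR being the receptor for lamin B as well. TM7SF2 (GRCh37 chr11:64879317-64883856, plus strand) measured 86.4, 111, 104 and 106 CPM in the sgCtrl libraries under siNC, 89.5, 71.1, 86 and 73.5 with sgKeap1-1 and 70.9, 65.9, 81.3 and 68.8 with sgKeap1-2. After TFEB/TFE3 knockdown, TM7SF2 measured 93.4, 104, 116 and 122 CPM with sgCtrl, 80.9, 85.8, 93.4 and 73.7 with sgKeap1-1 and 84.8, 79.96, 87.7 and 69 with sgKeap1-2. Only sgKeap1-1 under siNC overlapped its controls, and sgKeap1-1 under sitfeb/sitfe3 lay just below them. TM7SF2 fell in 3 contrasts, missing the threshold with sgKeap1-1 under siNC (adjusted p = 0.0536). There it passed with the replicate number as a block (adjusted p = 0.0354), with DESeq2 (0.0379), with quality weights (0.00594), without the libraries numbered 1 (0.00527) and without the pair that stood apart (0.0230). Its log2 fold changes were -0.35 and -0.50 with sgKeap1-1 and sgKeap1-2 under siNC and -0.39 and -0.44 under sitfeb/sitfe3. With sgKeap1-1 under sitfeb/sitfe3, TM7SF2 no longer passed without replicate 3 or 4 of sgCtrl under sitfeb/sitfe3 or replicate 1, 2 or 4 of sgKeap1-1 under sitfeb/sitfe3 (log2 -0.40 to -0.32, adjusted p 0.0547 to 0.119). LBR, by contrast, did not pass in any contrast. It measured 146 ± 20.2, 130.5 ± 11.2 and 131 ± 17.1 CPM (SD, n = 4) with sgCtrl, sgKeap1-1 and sgKeap1-2 under siNC and 137 ± 17.1, 146 ± 15.8 and 136 ± 36.7 under sitfeb/sitfe3. Its averaged change was -0.07 (95% interval -0.24 to 0.11), and that of TM7SF2 was -0.42 (-0.56 to -0.27), so the intervals of this pair of reductases did not overlap.

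SC5D, the sterol desaturase, and DHCR7, the reductase that yields cholesterol, close the pathway. SC5D (GRCh37 chr11:121163390-121184119, plus strand) measured 66.3, 84, 88.7 and 92.9 CPM in the sgCtrl libraries under siNC, 26.7, 57, 59.6 and 77.6 with sgKeap1-1 and 72, 58.4, 76.8 and 61 with sgKeap1-2. SC5D under sitfeb/sitfe3 measured 66.6, 84.5, 87.1 and 87.5 CPM with sgCtrl, 73.7, 67.2, 59.4 and 56.2 with sgKeap1-1 and 38.7, 52.2, 79.5 and 63.2 with sgKeap1-2. Every group overlapped its controls, and the lowest level came from a library that stood apart, replicate 1 of sgKeap1-1 under siNC. SC5D fell with sgKeap1-1 under siNC (-0.67 ± 0.22, adjusted p = 0.0482), where it no longer passed when any 1 of the 24 libraries was left out, other than replicate 1 of sgCtrl under siNC, replicate 4 of sgKeap1-1 under siNC, replicate 1 of sgCtrl under sitfeb/sitfe3 and replicate 1 and 3 of sgKeap1-2 under sitfeb/sitfe3 (log2 -0.74 to -0.35, adjusted p 0.0546 to 0.227), with edgeR (adjusted p = 0.0825), with DESeq2 (0.0608), with no filter on low counts (0.0504) or without both libraries that stood apart (log2 -0.35, adjusted p = 0.130). It fell on average (-0.46 ± 0.13, adjusted p = 0.00861), and without the libraries numbered 1 it also passed in the other 3 contrasts (adjusted p = 0.0249, 0.0119 and 0.0222). DHCR7 (GRCh37 chr11:71139239-71163914, minus strand) measured 77.2, 113, 119 and 121 CPM in the sgCtrl libraries under siNC, 86.7, 65.9, 74.2 and 71.8 with sgKeap1-1 and 58.5, 69.7, 77.9 and 68.6 with sgKeap1-2. In the sitfeb/sitfe3 libraries, DHCR7 measured 54.7, 76.5, 80.4 and 88 CPM with sgCtrl, 59.7, 43.3, 46.3 and 56.7 with sgKeap1-1 and 42.7, 48.5, 42.7 and 40.3 with sgKeap1-2. Only sgKeap1-2 under sitfeb/sitfe3 was separate from its controls, since replicate 1 of sgCtrl was low under either siRNA. Its changes with the KEAP1 guides were -0.51 and -0.63 with sgKeap1-1 and sgKeap1-2 under siNC and -0.54 and -0.77 under sitfeb/sitfe3 (SE 0.15 to 0.16, adjusted p 0.000994 to 0.0265). With sgKeap1-1, DHCR7 no longer passed under siNC without replicate 2, 3 or 4 of sgCtrl under siNC or replicate 2, 3 or 4 of sgKeap1-1 under siNC (log2 -0.50 to -0.44, adjusted p 0.0573 to 0.0958). Under sitfeb/sitfe3 it no longer passed without replicate 2, 3 or 4 of sgCtrl under sitfeb/sitfe3 or replicate 2 or 3 of sgKeap1-1 under sitfeb/sitfe3 (log2 -0.52 to -0.45, adjusted p 0.0682 to 0.119).

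**Figure D4:**
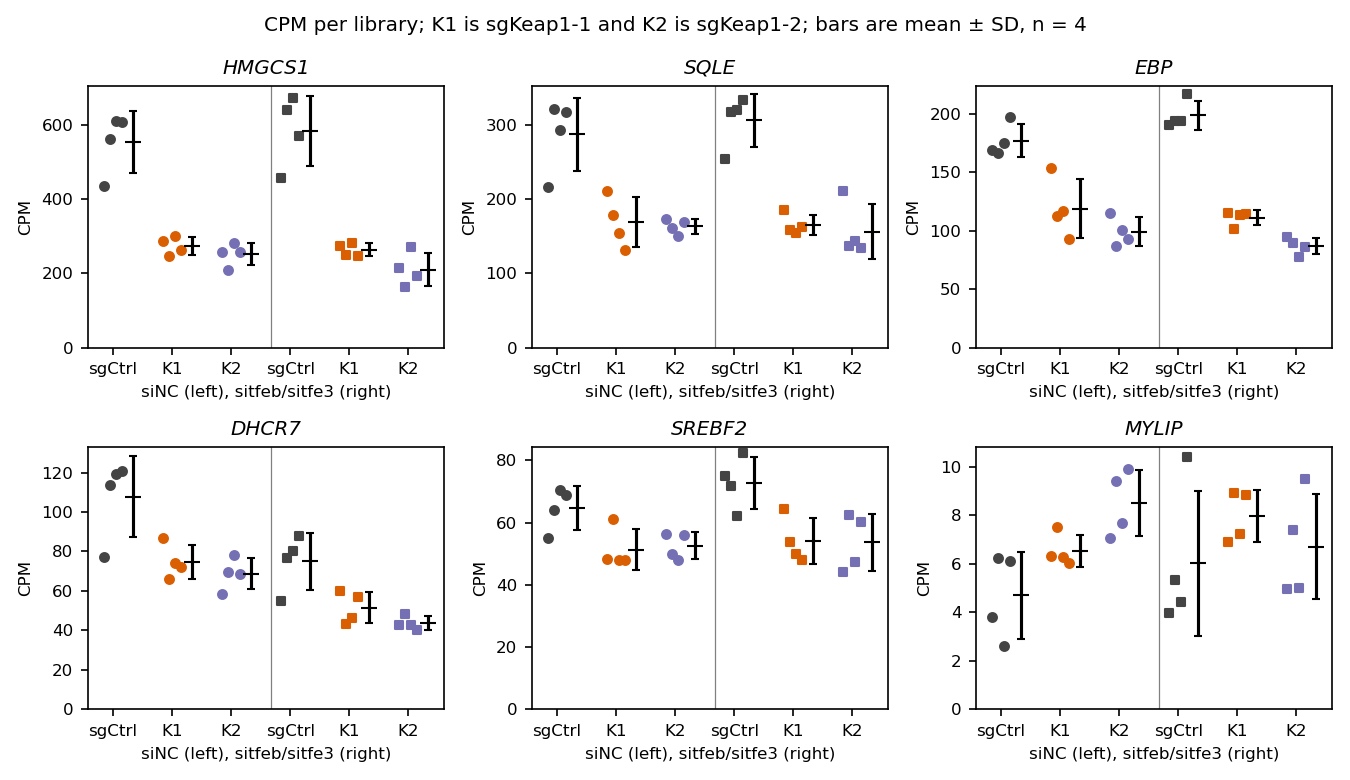
CPM of HMGCS1, SQLE, EBP, DHCR7, SREBF2 and MYLIP in every library, by guide (K1, sgKeap1-1; K2, sgKeap1-2) under siNC (circles) and sitfeb/sitfe3 (squares), with the mean ± SD of 4 libraries as bars and axes that start at 0. HMGCS1, SQLE and EBP separate the control guide from both KEAP1 guides, DHCR7 is also lower under sitfeb/sitfe3, and MYLIP is measured at 2.58 to 10.4 CPM with wide spread.

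Among the genes that sense sterols or move SREBP2, the averaged changes with the KEAP1 guides ran from -0.38 to -0.19. SREBF2 (GRCh37 chr22:42229109-42303310, plus strand), which encodes the SREBP2 precursor, measured 55.1, 64.1, 70.6 and 68.9 CPM in the sgCtrl libraries under siNC, 48.1, 61.1, 48 and 48 with sgKeap1-1 and 56.5, 49.8, 47.9 and 55.9 with sgKeap1-2. The sitfeb/sitfe3 libraries held SREBF2 at 75, 71.7, 62.1 and 82.3 CPM with sgCtrl, 64.4, 53.8, 49.8 and 48 with sgKeap1-1 and 44.2, 62.5, 47.5 and 60.2 with sgKeap1-2. At least 1 library of either KEAP1 guide overlapped the controls in each contrast. SREBF2 fell with both guides under sitfeb/sitfe3 (-0.43 ± 0.13, adjusted p = 0.028 for sgKeap1-1 and -0.44 ± 0.13, adjusted p = 0.0154 for sgKeap1-2), and did not pass under siNC (-0.34 and -0.30, adjusted p = 0.109 and 0.138). With sgKeap1-2 under siNC it passed with quality weights (adjusted p = 0.0342) and without the libraries numbered 1 (0.0313). Averaged, it fell by 23% (-0.38 ± 0.08, adjusted p = 0.000491). SREBF2 no longer passed with sgKeap1-1 without replicate 1, 2 or 4 of sgCtrl under sitfeb/sitfe3 or replicate 2, 3 or 4 of sgKeap1-1 under sitfeb/sitfe3 (log2 -0.44 to -0.37, adjusted p 0.0637 to 0.116). With sgKeap1-2 it no longer passed without replicate 4 of sgCtrl under sitfeb/sitfe3 or replicate 1 or 3 of sgKeap1-2 under sitfeb/sitfe3 (log2 -0.40 to -0.36, adjusted p 0.0518 to 0.0613), nor with quality weights on the libraries (adjusted p = 0.054). The interaction of guide and siRNA for SREBF2 was -0.12 ± 0.16 (adjusted p = 0.999), so a difference between the siRNAs was not shown.

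INSIG2 (GRCh37 chr2:118846028-118868573, plus strand), the retention protein that passed the filter, measured 54.6, 62.6, 73.5 and 75.9 CPM in the sgCtrl libraries under siNC, 24.9, 55.3, 39.97 and 61.7 with sgKeap1-1 and 53.9, 61.1, 56.5 and 62.4 with sgKeap1-2. After TFEB/TFE3 knockdown, INSIG2 measured 47.9, 85.5, 63.2 and 53.3 CPM with sgCtrl, 47.5, 68.9, 48.4 and 46.5 with sgKeap1-1 and 35, 49.4, 44.5 and 51.7 with sgKeap1-2. Under each siRNA, both KEAP1 guides overlapped sgCtrl. INSIG2 fell on average (-0.37 ± 0.12, adjusted p = 0.0261) and in none of the 4 separate contrasts, and on average it no longer passed without replicate 3 or 4 of sgCtrl under siNC or replicate 2 of sgCtrl under sitfeb/sitfe3 (log2 -0.34 to -0.29, adjusted p 0.058 to 0.0958). With the replicate number as a block, INSIG2 also passed with sgKeap1-1 under siNC (adjusted p = 0.0194). SCAP, the escort of SREBP2, measured 95 ± 17.5, 96.6 ± 26.5 and 74.1 ± 9.4 CPM (SD, n = 4) with sgCtrl, sgKeap1-1 and sgKeap1-2 under siNC and 112 ± 23, 93.6 ± 24.6 and 101 ± 22.4 under sitfeb/sitfe3. Its averaged change of -0.19 did not pass (95% interval -0.43 to 0.05), although without the libraries numbered 1 it passed with sgKeap1-2 under siNC (adjusted p = 0.0113). INSIG1 gave 0 to 14 reads in 23 libraries and 104 in the remaining 1, too few to test this strongly sterol-regulated gene. Why LSS and INSIG1 had so few reads was not tested.

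The 4 members of sterol transport and uptake included 1 that fell in each contrast, 1 that fell in a single contrast, 1 that rose and 1 that did not pass. TMEM97 (GRCh37 chr17:26646226-26655711, plus strand), an endoplasmic reticulum membrane protein that binds the cholesterol exporter of lysosomes, measured 282, 274, 282 and 273 CPM in the sgCtrl libraries under siNC, 241, 139.8, 174 and 125 with sgKeap1-1 and 186, 105, 129 and 149.6 with sgKeap1-2. TMEM97 under sitfeb/sitfe3 measured 334, 287, 293 and 330.3 CPM with sgCtrl, 194, 157, 182 and 174 with sgKeap1-1 and 280.0, 151, 119 and 134 with sgKeap1-2. It was separate from sgCtrl in each contrast, by little where replicate 1 of sgKeap1-2 under sitfeb/sitfe3 was concerned. TMEM97 changed by -0.75 and -0.99 with sgKeap1-1 and sgKeap1-2 under siNC and -0.82 and -0.96 under sitfeb/sitfe3 (SE 0.19 to 0.20, adjusted p 0.000712 to 0.0111), and with sgKeap1-1 under siNC it no longer passed without replicate 4 of sgKeap1-1 under siNC (log2 -0.61, adjusted p 0.0532). Its 3′ end overlaps IFT20, an intraflagellar transport gene on the opposite strand, which did not pass (0.01 ± 0.11, adjusted p = 0.959 on average). STARD4 (GRCh37 chr5:110831731-110848288, minus strand), a cytosolic sterol carrier, measured 22.9, 21.4, 21 and 16 CPM in the sgCtrl libraries under siNC, 9.07, 16.4, 11.6 and 14 with sgKeap1-1 and 18.6, 18, 21 and 14.7 with sgKeap1-2. In the sitfeb/sitfe3 libraries, STARD4 measured 16.1, 26.3, 21.3 and 13.4 CPM with sgCtrl, 16.8, 18.6, 16.9 and 16.8 with sgKeap1-1 and 19.5, 15, 15.9 and 13.2 with sgKeap1-2. Under each siRNA, both KEAP1 guides overlapped sgCtrl. STARD4 fell with sgKeap1-1 under siNC (-0.69 ± 0.21, adjusted p = 0.0301), where it no longer passed without replicate 1, 2 or 3 of sgCtrl under siNC or replicate 1 or 3 of sgKeap1-1 under siNC (log2 -0.66 to -0.54, adjusted p 0.068 to 0.109), without the 6 libraries numbered 1 (adjusted p = 0.190), with quality weights (0.0530) or without the pair that stood apart (0.0883). On average it missed the threshold (-0.31 ± 0.12, adjusted p = 0.0521), and passed with the replicate number as a block (adjusted p = 0.030), with edgeR (0.0430), with DESeq2 (0.0360), with no filter (0.0496), with quality weights (0.0105) and without the pair (0.0464).

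MYLIP (GRCh37 chr6:16129317-16148479, plus strand), a ubiquitin ligase induced by LXR that marks lipoprotein receptors for degradation, was the member that rose. MYLIP measured 3.81, 6.23, 2.58 and 6.13 CPM in the sgCtrl libraries under siNC, 6.3, 7.5, 6.28 and 6.03 with sgKeap1-1 and 7.06, 9.42, 7.68 and 9.9 with sgKeap1-2. The sitfeb/sitfe3 libraries held MYLIP at 3.95, 5.31, 4.4 and 10.4 CPM with sgCtrl, 6.9, 8.93, 7.22 and 8.85 with sgKeap1-1 and 4.95, 7.38, 5 and 9.5 with sgKeap1-2. Its levels were low, and apart from sgKeap1-2 under siNC the groups overlapped. MYLIP rose with sgKeap1-2 under siNC (0.89 ± 0.30, adjusted p = 0.0445) and on average (0.53 ± 0.19, adjusted p = 0.0295), and did not pass in the other 3 contrasts (0.51, 0.51 and 0.23). On average it no longer passed with edgeR (adjusted p = 0.0551), without the 6 libraries numbered 1 (0.0874) or without replicate 1 or 3 of sgCtrl under siNC or replicate 1, 2 or 3 of sgCtrl under sitfeb/sitfe3 (log2 0.42 to 0.52, adjusted p 0.0544 to 0.0919). With sgKeap1-2 under siNC it no longer passed with edgeR (adjusted p = 0.0567), without the libraries numbered 1 (0.0844) or without replicate 1 or 3 of sgCtrl under siNC, replicate 3 of sgKeap1-1 under siNC, replicate 2, 3 or 4 of sgKeap1-2 under siNC, replicate 2 of sgCtrl under sitfeb/sitfe3 or replicate 2, 3 or 4 of sgKeap1-1 under sitfeb/sitfe3 (log2 0.67 to 0.94, adjusted p 0.0504 to 0.164). NPC1L1, the cholesterol uptake transporter of intestine and liver, did not pass in any contrast and had an averaged change of -0.06 (95% interval -0.36 to 0.24). It measured 12.6 ± 3.95, 12.1 ± 1.88 and 11.8 ± 2.89 CPM (SD, n = 4) with sgCtrl, sgKeap1-1 and sgKeap1-2 under siNC and 16 ± 3.37, 13.7 ± 1.48 and 16.2 ± 4.43 under sitfeb/sitfe3.

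The next comparison set the guides against each other. Averaged over siRNAs, no member differed between sgKeap1-2 and sgKeap1-1 by limma, nor by edgeR or DESeq2, where 0.117% of all genes tested passed by limma. Of the 25 members, 18 had a lower fitted level with sgKeap1-2, at a median difference of -0.14 (0.02 over all genes tested). The share of all genes tested with a lower level was not counted. By limma, 3 members had an unadjusted p under 0.05 (8.53% of all genes tested). These were EBP (-0.30 ± 0.09, adjusted p = 0.239), ACAT2 (-0.26 ± 0.09, adjusted p = 0.341) and HMGCS1 (-0.24 ± 0.10, adjusted p = 0.493).

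The comparison of sitfeb/sitfe3 with siNC asked what the pathway did when TFEB and TFE3 were knocked down. A single member, DHCR7, changed, and it did so on average over the guides. In sgCtrl cells no member passed by limma, edgeR or DESeq2 (0.0179% of all genes tested passed by limma), and 2 had an unadjusted p under 0.05 (4.63%). In sgKeap1-1 cells none passed by any of these tools (0.0897%), and 2 had an unadjusted p under 0.05 (8.08%). In sgKeap1-2 cells none passed by limma or edgeR (0.359%), DHCR7 passed by DESeq2, and 2 members had an unadjusted p under 0.05 by limma (10.5%). The median member changed by 0.09, 0.07 and -0.10 on the log2 scale with sgCtrl, sgKeap1-1 and sgKeap1-2. Averaged over the 3 guides, 1 of the 25 members fell and none rose (2.33% of all genes tested passed, 1.39% as lower), and the median was 0.02. The averaged contrasts of knockdown and of guide use the same 24 libraries.

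DHCR7, the last reductase of the pathway, measured lower under sitfeb/sitfe3 with each guide. Its 12 siNC libraries ranged from 58.5 to 121 CPM and its 12 sitfeb/sitfe3 libraries from 40.3 to 88.0. The libraries given above overlapped in sgCtrl cells and were separate with sgKeap1-1 and with sgKeap1-2 (2.87% and 3.19% of all genes tested were lower without overlap). Its averaged change was -0.57 ± 0.09 (adjusted p = 0.000421), a fall of 32.8%. Within single guides its changes were -0.52 ± 0.15 (adjusted p = 0.514) with sgCtrl, -0.54 ± 0.16 (adjusted p = 0.252) with sgKeap1-1 and -0.66 ± 0.16 (adjusted p = 0.0791) with sgKeap1-2, and none of these passed. Without the 6 libraries numbered 1 all 3 passed (adjusted p = 0.0263, 0.0362 and 0.00108). The change with sgKeap1-2 also passed with DESeq2 (0.0122), with quality weights (0.0107) and without replicate 1 of sgCtrl under siNC (log2 -0.65, adjusted p 0.0418). PMVK measured 15.7, 19.4, 13.2 and 16.7 CPM in sgCtrl cells under siNC and 11.1, 8.69, 11.6 and 8.18 under sitfeb/sitfe3, without overlap (1.75% of all genes tested), and its averaged change was -0.41 ± 0.13 (adjusted p = 0.116). TMEM97 in sgCtrl cells (1.69% of all genes tested were higher without overlap) and FDFT1, MSMO1 and STARD4 in sgKeap1-1 cells (2.14%) were higher under sitfeb/sitfe3 without overlap, by 0.16, 0.14, 0.19 and 0.47 on the log2 scale, and INSIG2 in sgKeap1-2 cells was lower (-0.37), and none of these passed. NPC1L1 had an averaged change of 0.33 ± 0.14 (adjusted p = 0.271). HMGCS1 and SQLE, in comparison, had intervals of -0.25 to 0.08 and -0.18 to 0.17 for the averaged knockdown.

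**Figure D5:**
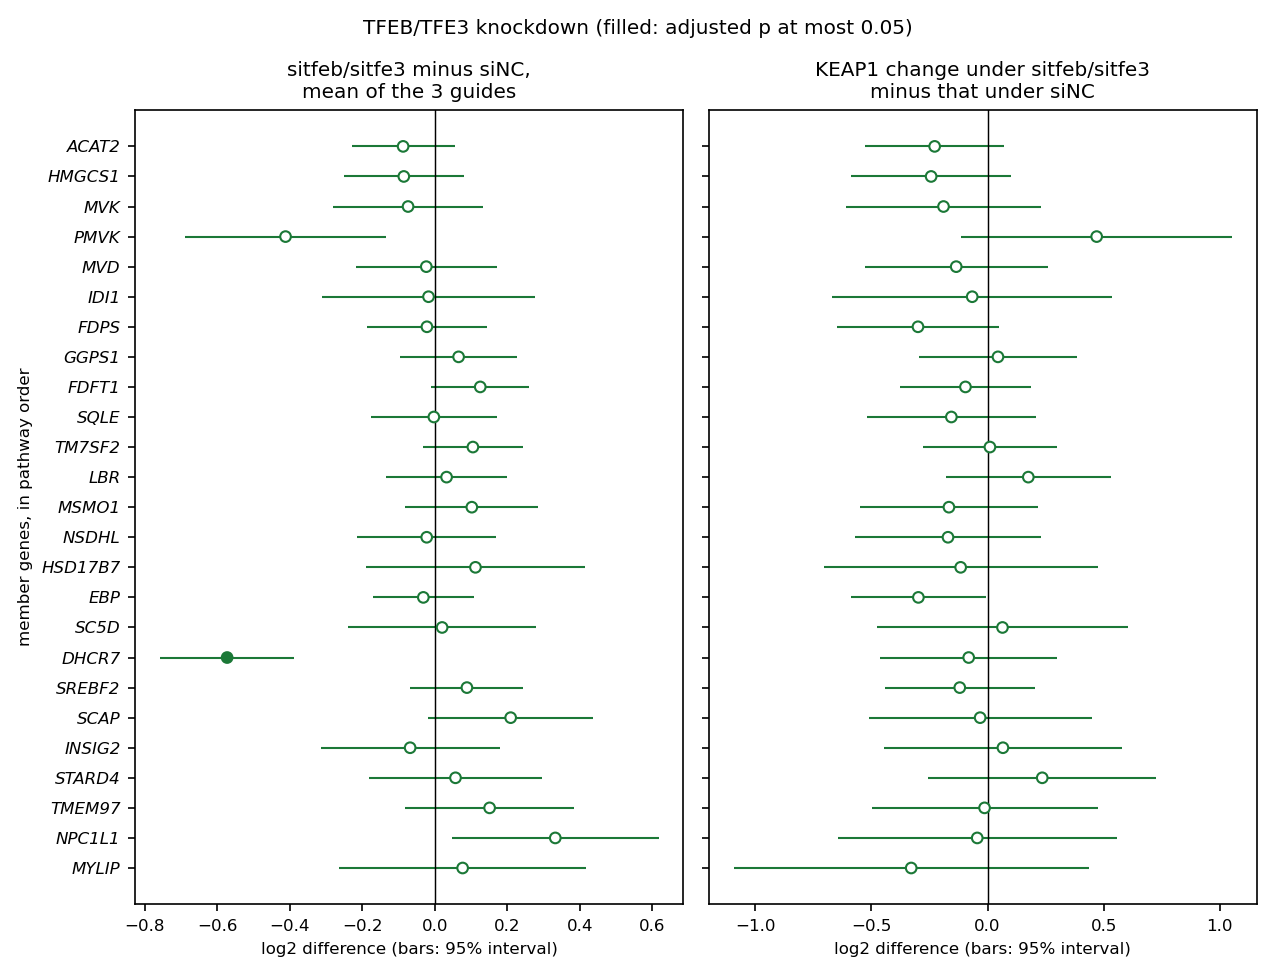
Left, log2 difference of each member between sitfeb/sitfe3 and siNC averaged over the 3 guides; right, the change with the KEAP1 guides under sitfeb/sitfe3 minus that under siNC; bars are 95% intervals and filled symbols have an adjusted p of at most 0.05. DHCR7, at -0.57 in the left panel, is the only filled symbol.

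Whether the changes with the KEAP1 guides depended on TFEB and TFE3 was tested as the interaction of guide and siRNA. No member passed by limma, edgeR or DESeq2, and neither did any of the 11152 genes tested (0%). An unadjusted p under 0.05 was found by limma for 1 member and for 349 genes (3.13%). That member was EBP (-0.30 ± 0.14, adjusted p = 0.999, 95% interval -0.59 to -0.01), whose fitted falls were larger under sitfeb/sitfe3. The interaction was negative for 18 of the 25 members, with a median of -0.10, against 0.01 over all genes tested. How many of all genes tested were negative was not counted. For HMGCS1 the interval was -0.59 to 0.10, for ACAT2 -0.53 to 0.07 and for SQLE -0.52 to 0.21. The changes of the 3 genes averaged over guides and siRNAs were -1.19, -0.88 and -0.86. The knockdown was partial at the RNA level. TFE3 measured 33.3, 49.1 and 54.9 CPM with sgCtrl, sgKeap1-1 and sgKeap1-2 under siNC. Under sitfeb/sitfe3 it measured 11.9, 14.4 and 16.5 CPM. The part of the remaining TFEB and TFE3 in the falls was not tested.

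Neighbouring branches of sterol metabolism were examined with lists compiled by hand. Of 15 genes that use the isoprenoids for dolichol, ubiquinone or protein prenylation, 1 rose and 1 fell on average over guides and siRNAs, against the 30.9% of all genes tested that passed in that comparison. DHDDS, of dolichol synthesis, rose (0.49 ± 0.11, adjusted p = 0.00128) and FNTB, a farnesyltransferase subunit, fell (-0.40 ± 0.07, adjusted p = 9.60e-05). Of 17 genes for the processing or degradation of SREBP, 3 rose and 1 fell, again no larger a share than that of all genes. PAQR3, a Golgi anchor of SCAP, rose (0.65 ± 0.21, adjusted p = 0.0202), as did VCP, the ATPase that extracts proteins from the endoplasmic reticulum (0.24 ± 0.05, adjusted p = 0.000304), and MBTPS1, the first protease to cut SREBP2 (0.21 ± 0.06, adjusted p = 0.0127). ERLIN1, which binds cholesterol in that membrane, fell (-0.29 ± 0.11, adjusted p = 0.0456). Of 19 genes of sterol storage, transport and the LXR response, 7 fell and 3 rose, where 15.6% of all genes tested fell and 15.2% rose. The 7 were ABCG8 (-0.86), ABCG5 (-0.39) and ABCA1 (-0.39), which export sterols, SOAT2 (-0.62) and SOAT1 (-0.36), which esterify cholesterol, RXRA (-0.56), the partner of LXR, and NPC2 (-0.24), the lysosomal cholesterol carrier. ABCG8 was low, at 4 to 30 reads in a library, so the size of its change is uncertain. ABCG5 had 25 to 62 reads in a library. GRAMD1A (0.43), NR1H2 (0.47) and OSBPL2 (0.28) rose. With sitfeb/sitfe3, no gene of the first or second of these lists passed averaged over guides. LIPA, the lysosomal enzyme that frees cholesterol from its esters, fell in that comparison (-0.78 ± 0.10, adjusted p = 2.12e-05), as did NPC2 (-0.34 ± 0.05, adjusted p = 0.000596).

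Within groups, some members followed HMGCS1 from library to library. Across the 24 libraries, as deviations from their group means, FDFT1 had a correlation with HMGCS1 of 0.74 (rank 7 of 11151 genes), TM7SF2 of 0.68 (rank 26), ACAT2 of 0.66 (rank 37) and MSMO1 of 0.58 (rank 89). The median was 0.34 for the other 17 enzymes tested, 0.14 for the other 24 members and -0.00 for all other genes. The libraries share their replicate numbers and depth, and the values are a description.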

How the data were processed

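Per the deposited processing notes and the study's methods, the authors sequenced QuantSeq 3′ libraries single-end, trimmed reads with cutadapt 1.16, aligned them with STAR 2.7.5b, and counted reads per gene with featureCounts 1.6.3; the deposited values are unnormalised counts by NCBI Gene identifier. The methods name hg19 and the processing notes hg38, and the strand setting is not given in the sources used here. Gene coordinates printed above are GENCODE positions on GRCh37, and promoter sequences are RefSeq on GRCh38.p14. Columns were matched to libraries by the description label, which repeats the column name, and groups were taken from the titles.

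Of 13446 rows, 1414 had no identifier (1.35 to 2.57% of a library's reads) and were left out. Rows that shared an identifier were summed, which together with 160 identifiers that held identical counts, counted as 78 features, left 11927 genes. edgeR's filterByExpr kept 11152. Counts were TMM-normalised and fitted by limma-voom in R 4.3.3 (limma 3.58.1 and edgeR 4.0.16 packages) with 1 mean for each of the 6 groups over all 24 libraries, and p-values were adjusted by Benjamini-Hochberg over the 11152 genes. The module mean used log2 CPM with a prior count of 2. All tests were two-sided. In all, 11 contrasts were tested, namely sgKeap1-1 or sgKeap1-2 compared with sgCtrl under either siRNA, sitfeb/sitfe3 against siNC for each guide, both of these averaged, sgKeap1-2 against sgKeap1-1, and the interaction. Alternatives were edgeR's quasi-likelihood test, DESeq2 1.42.0, its size factors, no filter, a replicate block, quality weights, omission of the libraries numbered 1 and of each library, and, chosen after seeing the data, omission of the pair that stood apart. The fit was tested on simulated data. All members were named, and values per library were given for those that passed in at least 1 contrast. Of the cell type markers chosen, 1 is not reported here. The members and lists were chosen with earlier results of these data known.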

Additional observations from a re-analysis of the deposited data

Results flagged for a closer look

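For each member and group of 4 libraries, the highest or lowest library was compared with the others by Dixon's ratio at its 95% critical value for 4 values. Of 161 member-group sets tested, 21 held a library that stood apart, where chance gives about 1 in 20. The 21 values came from 14 different libraries. Libraries numbered 1 gave 9 of the values, those numbered 2 gave 8, those numbered 3 gave none and those numbered 4 gave 4.

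Among the enzymes, ACAT2 was low in replicate 1 of sgCtrl under both siRNAs, at 598 CPM under siNC (703 to 716 in the others) and 574 under sitfeb/sitfe3 (753 to 785), and in replicate 2 of sgKeap1-2 under siNC at 314 CPM (395 to 408). EBP was high in replicate 4 of sgCtrl under sitfeb/sitfe3, at 217 CPM (191 to 194), and low in replicate 2 of sgKeap1-1, at 102 (113 to 115). MVK was high in replicate 1 of sgKeap1-1 under sitfeb/sitfe3, at 49.7 CPM (34.8 to 36.7), and SQLE in replicate 1 of sgKeap1-2 under sitfeb/sitfe3, at 211 (134 to 144). MSMO1 reached 185 CPM in replicate 2 of sgKeap1-1 under sitfeb/sitfe3 (146 to 152), and HSD17B7 8.47 in replicate 1 of sgKeap1-2 under siNC (4.97 to 5.38). SC5D was low in replicate 1 of sgCtrl under sitfeb/sitfe3, at 66.6 CPM (84.5 to 87.5), and LBR was high in replicate 1 of sgKeap1-2 under sitfeb/sitfe3, at 191 (113 to 121). LSS, at a few reads a library, reached 5.49 CPM in replicate 2 of sgCtrl under siNC (0.287 to 0.943) and 2.27 in replicate 1 of sgKeap1-1 under siNC (0 to 0.278).

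Among the other members, INSIG1 was at 25.6 CPM in replicate 2 of sgKeap1-2 under sitfeb/sitfe3 and at 0 in the other 3 libraries of that group, and at 0.690 CPM in replicate 4 of sgKeap1-2 under siNC, again with the others at 0. INSIG2 and STARD4 were high in replicate 2 of sgKeap1-1 under sitfeb/sitfe3, at 68.9 CPM (46.5 to 48.4) and 18.6 CPM (16.8 to 16.9). SREBF2 was at 61.1 CPM in replicate 2 of sgKeap1-1 under siNC (48.0 to 48.1). SCAP was at 136 CPM in replicate 1 of sgKeap1-1 under siNC (79.8 to 89.0) and at 130.4 CPM in replicate 4 of sgKeap1-1 under sitfeb/sitfe3 (78.8 to 85.1). NPC1L1 was low in replicate 4 of sgKeap1-1 under sitfeb/sitfe3, at 11.5 CPM (14.4 to 14.6).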

How the results depend on the processing

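No member changed sign while passing under any alternative. Members passing with sgKeap1-1 and sgKeap1-2 numbered 13 to 17 and 14 to 17 under siNC, 13 to 17 and 15 to 17 under sitfeb/sitfe3, and 18 to 20 on average, over the alternatives that kept all libraries or left out the libraries numbered 1 or the pair that stood apart. Without that pair the numbers were 14, 15, 15, 16 and 20. Leaving out 1 library gave 9 to 17 with sgKeap1-1 under siNC, the 9 without replicate 3 of sgCtrl under siNC, 13 to 15 with sgKeap1-2 under siNC, 10 to 15 and 14 to 17 under sitfeb/sitfe3, and 17 to 20 on average. For sitfeb/sitfe3 against siNC, where no member passed within a guide, 1 passed with sgCtrl and 1 with sgKeap1-1 without the libraries numbered 1, and with sgKeap1-2 the number was 1 by DESeq2, 1 with quality weights and 2 without the libraries numbered 1 (DHCR7 lower, SCAP higher). It ran from 0 to 1 there when 1 library was left out. The causes were not tested. DHCR7 passed in the averaged knockdown under every alternative, and without single libraries its change ran from -0.62 to -0.53 (adjusted p 4.6e-05 to 0.00149). The labels do not say what a replicate number shares, and the main fit did not use the numbers as a block. Over the 60 pairs of same-numbered libraries, the correlation of their deviations from group means ran from -0.16 to 0.43. Its median was 0.046, and 20 pairs exceeded 0.1. Over the 180 pairs with different numbers the median was -0.025 and 17 exceeded 0.1. Among the 15 pairs numbered 1 the median was 0.12 and 10 exceeded 0.1, against 5, 2 and 3 of the pairs numbered 2, 3 and 4. As a hint that same-numbered libraries share something, 15 of 24 libraries correlated best with a library of their own number. With the replicate block, 17, 15, 14, 16 and 20 members passed for the KEAP1 guides, 0, 0 and 0 for the knockdown within guides and 1 on average. In that fit TM7SF2, HSD17B7 and INSIG2 passed with sgKeap1-1 under siNC and STARD4 on average, which they did not without the block. LSS and INSIG1 had too few reads to test.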
